A study of Homo sapiens with 10 samples.

Results

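Glycolysis and hypoxia response genes were compared between bortezomib-resistant and parental cells of 2 mantle cell lymphoma lines. The set was a list of 46 genes, chosen with earlier results of these data known. It covered glucose and lactate transport, the glycolytic enzymes and the kinases that steer pyruvate and fructose phosphate. It also held the HIF transcription factors with their oxygen sensors, and other genes induced by low oxygen. Of the 46, 43 had a probe set that the platform annotation gives to that gene alone, and the probe set with the highest mean over the 10 arrays stood for the gene. SLC16A1, SLC16A3 and CA9 were not analysed here. The low-value filter, a value at or above the array median on at least 2 arrays, was passed by 42 of the 43, among 14529 of 19775 genes in all, and EPAS1 was the one that did not pass.

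HBL2 and JEKO are human cell lines of mantle cell lymphoma, a cancer of B lymphocytes, and bortezomib blocks the proteasome. The groups were HBL2 BR (3 arrays), HBL2 PT (3 arrays), JEKO BR (2 arrays) and JEKO PT (2 arrays), all from cells in logarithmic growth. BR is labelled as resistance induced by bortezomib, while the letters PT are taken to mean parental, a reading that comes from knowing the study and not from the labels. The sources used here do not give the drug concentration, the oxygen level of the cultures or whether BR cells are a clone or a pool. No label states that replicates were grown separately, and the spread behind the p-values is that of these samples alone and may be technical. In RNA from whole cultures, fewer cells that express a gene and less RNA per cell cannot be told apart.

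Glycolysis turns glucose into pyruvate and yields ATP without oxygen, and lactate dehydrogenase then regenerates the cofactor the pathway needs. When oxygen is low, the prolyl hydroxylases encoded by EGLN1 and EGLN3 no longer mark HIF-1α and HIF-2α for the ubiquitin ligase subunit VHL and destruction by the proteasome, and the stabilised factors pair with ARNT and bind a short DNA motif near their target genes. Targets include glucose transporters, most glycolytic enzymes, the kinase gene PDK1, secreted factors such as VEGFA and adrenomedullin, and the mitophagy receptor BNIP3. The PDK1 kinase switches off pyruvate dehydrogenase. Many lymphoma lines run glycolysis at a high rate with oxygen present.

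The values are deposited scores on a scale that looks logarithmic but whose base is not stated, so changes are differences in score units and not folds. Once sorted, the 10 arrays hold identical values, from 0 to 4.99 with a median of 0.73, so a score tells where a probe set ranks within its array. A shift shared by most genes cannot be seen in such values, and scores of different genes are not compared. A gene was called changed at an adjusted p under 0.05 in limma, a linear model fitted over all 14529 genes with Benjamini-Hochberg adjustment over all of them. All p-values given are from that fit unless another setting is named, and ± gives the standard error of a change or the standard deviation (SD) of a mean.

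Markers of the lineage were read first. CCND1, the cyclin D1 gene that marks this lymphoma, averaged 2.61 ± 0.11 in HBL2 BR, 2.62 ± 0.061 in HBL2 PT, 3.04 ± 0.028 in JEKO BR and 3.29 ± 0.046 in JEKO PT (SD, n = 3, 3, 2 and 2), and PAX5, CD79A, CD79B and MS4A1 lay above the array median in every group, while CD5 did so only in the JEKO groups. The mean over 7 B cell markers ranged from 1.92 to 2.04 in HBL2 BR, 2.09 to 2.19 in HBL2 PT, 2.26 to 2.34 in JEKO BR and 2.37 to 2.42 in JEKO PT. It was lower in BR than in PT in both lines. Means over 6 T and NK cell markers (0.53 to 0.67 over the 10 arrays) and 4 myeloid markers (0.48 to 0.65) stayed below the array median on every array. Means over 6 stromal and epithelial markers ran from 0.71 to 0.97. Single markers were called: PECAM1, an adhesion gene of endothelial and blood cells, was lower in BR in HBL2 (-0.47 ± 0.084, adjusted p = 0.00126) and JEKO (-0.44 ± 0.10, adjusted p = 0.0244), and the B cell receptor genes CD79A (-0.35 ± 0.061, adjusted p = 0.000981) and CD79B (-0.25 ± 0.063, adjusted p = 0.0173) were lower in HBL2 BR. Their part in the results was not tested. JEKO BR replicate 2 had the lowest value of an RNA quality measure: its GAPDH 5' minus 3' control value was -0.64, against -0.44 to -0.17 on the other 9 arrays. Another such measure, beta-actin 5' minus 3', was lowest on HBL2 PT replicate 1 (-1.25, range up to -0.58), and JEKO BR replicate 2 stood at -1.01. Called JEKO members are given with and without JEKO BR replicate 2.

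The promoters of 4 members show the letters around which HIF sites are built. ADM was the member that rose in both lines, KDM4B and BHLHE40 had the lowest adjusted p in JEKO after it, and BNIP3 differed most between the parental lines. The last 3 were chosen after their values were seen. Each sequence is the RefSeq promoter (GRCh38.p14, 250 bases before to 50 after the annotated start), read 5′ to 3′ on the gene's strand, with matches to ACGTG or GCGTG on either strand in capitals.
ADM, chr11:10304823-10305122, plus strand: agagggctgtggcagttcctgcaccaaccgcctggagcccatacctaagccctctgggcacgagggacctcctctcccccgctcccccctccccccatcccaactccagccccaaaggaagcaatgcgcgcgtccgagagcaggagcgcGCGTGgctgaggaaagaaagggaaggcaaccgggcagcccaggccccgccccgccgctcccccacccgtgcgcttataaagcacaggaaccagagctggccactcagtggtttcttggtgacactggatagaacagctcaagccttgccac
KDM4B, chr19:4968863-4969162, plus strand: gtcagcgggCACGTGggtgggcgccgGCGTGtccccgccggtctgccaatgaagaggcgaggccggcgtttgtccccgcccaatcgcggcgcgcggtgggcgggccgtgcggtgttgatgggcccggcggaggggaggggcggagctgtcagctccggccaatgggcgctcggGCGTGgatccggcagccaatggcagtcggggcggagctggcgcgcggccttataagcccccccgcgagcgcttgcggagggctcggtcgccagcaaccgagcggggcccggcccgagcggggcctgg
BHLHE40, chr3:4979187-4979486, plus strand: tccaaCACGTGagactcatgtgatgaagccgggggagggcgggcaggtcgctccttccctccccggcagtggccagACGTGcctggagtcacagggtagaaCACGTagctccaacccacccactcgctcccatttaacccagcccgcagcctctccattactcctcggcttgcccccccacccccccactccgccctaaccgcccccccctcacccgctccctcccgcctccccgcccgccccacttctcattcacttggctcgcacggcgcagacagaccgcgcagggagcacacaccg
BNIP3, chr10:131981874-131982173, minus strand: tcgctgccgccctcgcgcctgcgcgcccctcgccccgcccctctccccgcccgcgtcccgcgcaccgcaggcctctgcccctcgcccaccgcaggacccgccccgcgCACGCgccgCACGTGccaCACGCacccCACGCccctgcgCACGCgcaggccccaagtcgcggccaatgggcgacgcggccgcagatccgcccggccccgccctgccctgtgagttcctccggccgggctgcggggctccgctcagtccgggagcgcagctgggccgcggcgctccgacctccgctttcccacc
The ADM window held 1 match, GCGTG, which began at base -101 from the start. KDM4B held 2 matches to each motif at 3 separate places, and BHLHE40 held 4 matches to ACGTG at 3 places. BNIP3 held 2 matches to ACGTG and 4 to GCGTG at 5 places between bases -143 and -104. The run CACGTG counts as a match on both strands. A match describes letters only, and these arrays do not measure binding.

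Of the 43 measured members, 38 had an entry in the promoter table, with 64 promoters because a gene can have several. BNIP3L, NDRG1, SLC2A3, VEGFA and VHL had none used here. At least 1 match to either motif stood in 43 of the 64 promoters (67.2%), in 11 of 13 promoters of the hypoxia targets (84.6%), 23 of 37 of the glycolytic enzymes (62.2%) and 3 of 7 of the HIF factors and oxygen sensors (42.9%). Among all 35116 RefSeq promoters of that length it was 48.4%, with ACGTG in 21.4% and GCGTG in 36.5%. Promoters of 1 gene overlap, base composition was not matched, and no test was made.

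SLC2A3, HK1, PDK1, ANKRD37 and BNIP3 fell in HBL2 BR, and ADM and ENO2 rose. That was 5 lower (11.9%) and 2 higher (4.76%) of 42 tested members, against 6.86% lower and 4.91% higher over all genes, so the share that rose was close to the background. Together 7 were called (16.7%, against 11.8% of all genes). BNIP3 is counted among them although it passed the filter only through JEKO. The median change of the members was -0.080, with all genes at -0.00099. In 14 members the 3 BR arrays lay below all 3 PT arrays and in 3 above, where 14.5% and 12.8% of all genes did so.

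SLC2A3, the high-affinity glucose transporter GLUT3, had the largest fall. Its scores were 0.47, 0.21 and 0.40 in HBL2 BR, against 1.10, 0.97 and 1.14 in HBL2 PT. The groups did not overlap, and all 3 BR values were below the array median. The change was -0.71 ± 0.093 (adjusted p = 6.78e-05). The other 2 probe sets of SLC2A3 had changes of -0.33 and -0.087. SLC2A1, the widely expressed transporter GLUT1, scored 1.46, 1.46 and 1.36 in HBL2 BR, against 1.62, 1.52 and 1.56 in HBL2 PT, and its change of -0.14 ± 0.063 (adjusted p = 0.201) did not pass although the groups did not overlap.

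HK1, which traps glucose in the cell by phosphorylating it, scored 1.09, 0.997 and 1.19 in HBL2 BR, against 1.65, 1.41 and 1.58 in HBL2 PT. Every BR value was below every PT value, with a change of -0.45 ± 0.07 (adjusted p = 0.000365). HK2, the hexokinase most often induced by HIF-1, scored 2.34, 2.46 and 2.50 in HBL2 BR, against 2.40, 2.36 and 2.65 in HBL2 PT, with overlapping groups and a change of -0.036 ± 0.076 (adjusted p = 0.843). ENO2, the enolase first described in neurons, rose: its scores were 1.55, 1.53 and 1.74 in HBL2 BR, against 1.37, 1.26 and 1.43 in HBL2 PT, a change of 0.25 ± 0.069 (adjusted p = 0.025). The groups did not overlap, but ENO2 was no longer called without HBL2 BR replicate 3 (adjusted p = 0.117), without HBL2 PT replicate 2 (adjusted p = 0.12) and in 3 other settings.

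The other 15 glycolytic enzymes were not called in HBL2, and their changes lay between -0.17 (PGAM1, phosphoglycerate mutase) and 0.22 (PGK1, phosphoglycerate kinase). ALDOA, aldolase A, had a change of 0.018 ± 0.057, ENO1 one of -0.037 ± 0.058 and PKM, pyruvate kinase, one of 0.13 ± 0.07. LDHA, which makes lactate, scored 3.88, 3.87 and 3.86 in HBL2 BR, against 4.11, 4.05 and 3.72 in HBL2 PT. The PT arrays of LDHA spread more widely than the BR arrays, with replicate 3 lowest, and without that array the change was -0.21 (adjusted p = 0.011), against -0.088 ± 0.078 (adjusted p = 0.555) with it. The same PT array was lowest for PGK1, at 2.74 against 3.26 and 3.22.

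Of the regulatory kinases, PDK1, which switches off pyruvate dehydrogenase, fell. It scored 1.36, 1.36 and 1.44 in HBL2 BR, against 1.77, 1.89 and 2.09 in HBL2 PT, with no overlap and a change of -0.53 ± 0.075 (adjusted p = 0.000157), and its other 2 probe sets had changes of -0.29 and -0.26. PFKFB4, a bifunctional enzyme that sets fructose-2,6-bisphosphate, scored 1.36, 1.37 and 1.43 in HBL2 BR, against 1.66, 1.56 and 1.60 in HBL2 PT, a change of -0.22 ± 0.082 (adjusted p = 0.105). PFKFB3 and PDK3 had changes of -0.088 ± 0.059 and 0.0078 ± 0.075 and were not called.

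Among the hypoxia targets, ADM, the gene of the vasodilator peptide adrenomedullin, moved further than any other member. It scored 2.56, 2.60 and 2.54 in HBL2 BR, against 1.27, 1.38 and 1.60 in HBL2 PT. The lowest BR value stood far above the highest PT value, and the change was 1.15 ± 0.072 (adjusted p = 2.39e-08). ANKRD37, a small ankyrin-repeat protein gene, fell, with 1.49, 1.41 and 1.38 in HBL2 BR, against 1.81, 1.82 and 1.85 in HBL2 PT and a change of -0.40 ± 0.069 (adjusted p = 0.000904). BNIP3, an outer-membrane receptor that marks mitochondria for mitophagy, scored 0.30, 0.42 and 0.33 in HBL2 BR, against 0.58, 0.68 and 0.63 in HBL2 PT, with a change of -0.28 ± 0.069 (adjusted p = 0.0124). All 6 values were below the array median and BNIP3 passed the filter only through the 4 JEKO arrays, so this call compares scores not shown to be above background. BNIP3 was no longer called without HBL2 BR replicate 1 (adjusted p = 0.0624), without HBL2 PT replicate 2 (adjusted p = 0.0568), with HBL2 fitted alone and with the median over probe sets.

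The other 10 hypoxia targets were not called in HBL2. VEGFA, the main angiogenic growth factor, had a change of -0.034 ± 0.064, NDRG1, a stress-induced gene, one of 0.057 ± 0.083, and P4HA1, a collagen prolyl hydroxylase subunit, one of -0.077 ± 0.086. BHLHE40, a transcriptional repressor, and ERO1A, the oxidase of disulfide formation in the endoplasmic reticulum, had changes of -0.15 ± 0.06 and -0.081 ± 0.056, each with BR arrays below PT arrays. BNIP3L, the relative of BNIP3, had a change of -0.20 ± 0.07 (adjusted p = 0.08).

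In JEKO BR, 7 of 13 hypoxia targets and 4 other members were called higher with all arrays, and 0 members were called lower. KDM3A, KDM4B, ADM, VEGFA, NDRG1, BHLHE40 and ERO1A rose among the hypoxia targets, GPI and ALDOC among the enzymes, SLC2A3 among the transporters and PFKFB4 among the kinases. That was 11 of 42 tested members higher (26.2%), against 2.56% of all genes (4.28% in either direction), and 7 of 13 hypoxia targets (53.8%). Of the 42, 0 were called lower (1.72% of all genes), or 0 at an unadjusted p under 0.05 in limma, against 21 higher. On the probe set that stood for the gene, the change was above 0 in all 13 tested hypoxia targets and in 35 of 42 members. Other probe sets of ANKRD37 (-0.19), P4HA1 (-0.038), P4HA2 (-0.12) and KDM4B had changes below 0. Those of KDM3A, VEGFA, BNIP3, BNIP3L, BHLHE40 and ERO1A were all above 0. SLC2A1, HK2, PFKL, ENO1, GAPDH and PDK1 were among the other members with a probe set below 0, while ALDOA, TPI1, PKM, LDHB, PFKFB4 and VHL had none. The median change was 0.27 in the hypoxia targets, 0.15 in the glycolytic enzymes and 0.012 over all genes. In 12 of the 13 hypoxia targets and 12 of 17 enzymes both BR arrays lay above both PT arrays, where 28.3% of all genes did so. Over the 42 members that held for 30, and 3 had both BR arrays below (22.5% of all genes).

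These counts depended on single arrays. Without JEKO BR replicate 2, the array with the low GAPDH 5' minus 3' value, 1 member (ADM) was called. It was 2 without JEKO PT replicate 1 (KDM4B and ADM), 5 without JEKO BR replicate 1, 8 without JEKO PT replicate 2, and 7 without HBL2 BR replicate 1 or 2. With the GAPDH 5' minus 3' value as a covariate it was 3 (KDM4B, ADM and BHLHE40). Over all genes 335 were called with that covariate, against 622 without it. Leaving out any JEKO array also lowered the number called over all genes. Whether the members lost a larger share of their calls than other genes was not tested. All 13 changes of the hypoxia targets were above 0 in each of these fits. Without JEKO BR replicate 2 their median was 0.24, and 34 of 42 members were above 0. For the 12 targets with both BR arrays above both PT arrays, leaving out 1 JEKO array could not turn the sign. Leaving out an HBL2 array does not alter a JEKO change, so the kept direction adds no support. The part of RNA quality in the rises was not tested beyond these fits.

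ADM rose in JEKO as in HBL2. It scored 2.05 and 2.09 in JEKO BR, against 1.25 and 1.29 in JEKO PT, far apart, with a change of 0.80 ± 0.088 (adjusted p = 9.23e-05), and the call held in all 21 alternatives run (adjusted p up to 0.0044). KDM4B, a histone demethylase gene, scored 2.51 and 2.61 in JEKO BR, against 1.99 and 2.07 in JEKO PT, a change of 0.53 ± 0.087 (adjusted p = 0.00262). Of its 8 probe sets, 6 had changes above 0, between 0.17 and 0.61, and the other 2 had changes of -0.42 and -0.026. KDM4B was no longer called without JEKO BR replicate 2 (adjusted p = 0.0621) or with the median over probe sets (adjusted p = 0.084).

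BHLHE40 scored 2.08 and 2.20 in JEKO BR, against 1.70 and 1.75 in JEKO PT, with no overlap and a change of 0.42 ± 0.074 (adjusted p = 0.00405). VEGFA scored 2.38 and 2.44 in JEKO BR, against 2.001 and 2.15 in JEKO PT, a change of 0.34 ± 0.078 (adjusted p = 0.0228), and all 4 of its probe sets were higher in JEKO BR, by 0.11 to 0.34. ERO1A scored 1.73 and 1.80 in JEKO BR, against 1.53 and 1.47 in JEKO PT, a change of 0.27 ± 0.068 (adjusted p = 0.0382), and its other 2 probe sets had changes of 0.20 and 0.17. The groups did not overlap in any of these 3 genes. BHLHE40 was no longer called without JEKO BR replicate 2 (adjusted p = 0.0913) or JEKO PT replicate 1 (adjusted p = 0.058), and with the median over probe sets it had a change of 0.28 (adjusted p = 0.242), its other probe set standing at 0.14. Without JEKO BR replicate 2, neither VEGFA (0.31, adjusted p = 0.218) nor ERO1A (0.23, adjusted p = 0.294) was called. VEGFA was not called in 7 of 20 alternatives and ERO1A in 11 of 21.

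KDM3A, another histone demethylase gene, scored 2.52 and 2.56 in JEKO BR, against 2.10 and 2.35 in JEKO PT, a change of 0.32 ± 0.083 (adjusted p = 0.0398). NDRG1 scored 1.21 and 1.27 in JEKO BR, against 0.94 and 0.78 in JEKO PT, a change of 0.38 ± 0.10 (adjusted p = 0.0451). Both calls lay near the threshold, and NDRG1 lost its call in 13 of the 20 alternatives run and KDM3A in 9 of 20, JEKO BR replicate 2 left out among them (KDM3A 0.30, adjusted p = 0.262, and NDRG1 0.35, adjusted p = 0.281). BNIP3 scored 2.71 and 2.79 in JEKO BR, against 2.37 and 2.60 in JEKO PT, a change of 0.27 ± 0.084 (adjusted p = 0.0922) that did not pass. ANKRD37, P4HA1, P4HA2, MXI1 and BNIP3L had changes of 0.21, 0.24, 0.18, 0.21 and 0.13 and were not called. P4HA2 is counted among the 13 targets although it passed the filter only through JEKO. It reached the array median at 0.77 and 0.78 in JEKO BR and 0.76 on JEKO PT replicate 2, and on no HBL2 array.

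**Figure D1:**
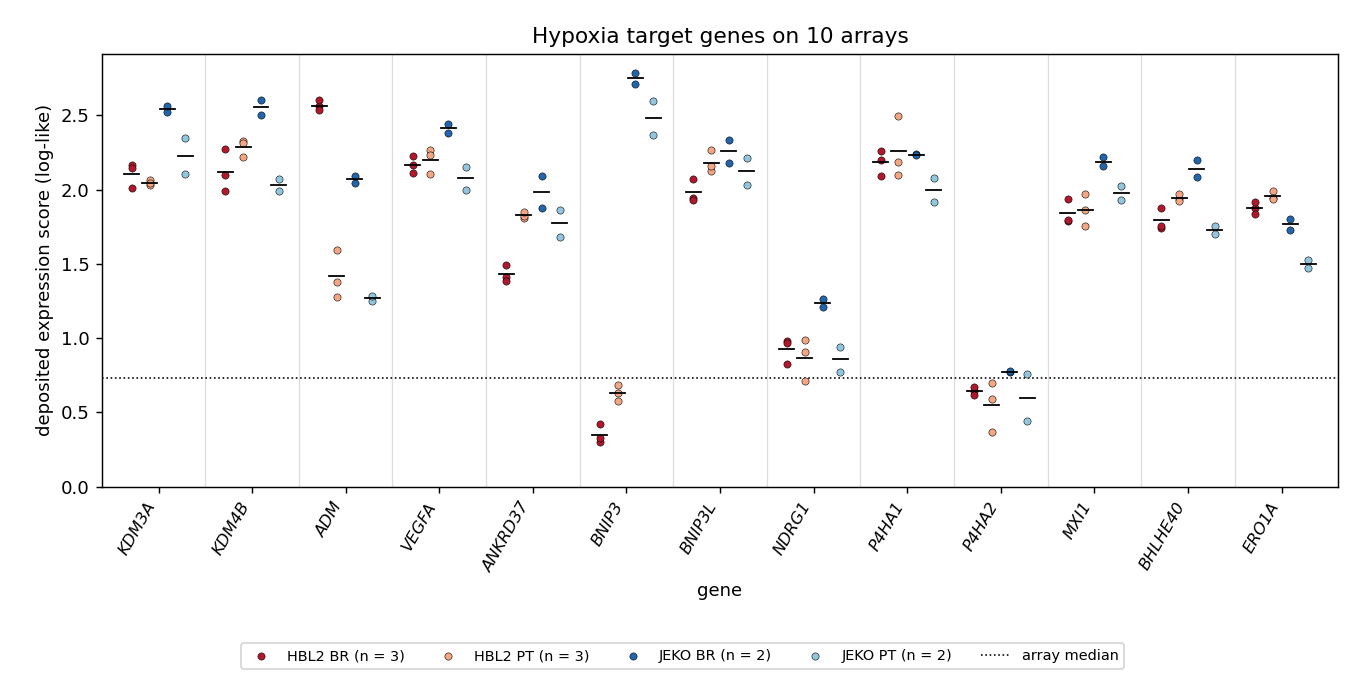
Deposited score (vertical axis, log-like units) of the 13 tested hypoxia targets on each array. Points are arrays, short bars are group means and the dotted line is the array median of 0.73. In JEKO the BR points lie above the PT points in 12 genes. In HBL2 only ADM has all BR points above all PT points. BNIP3 and P4HA2 lie below the array median on all HBL2 arrays.

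Of the 17 glycolytic enzymes in JEKO, 2 were called higher (11.8%). ALDOC, the aldolase of the brain, scored 2.16 and 2.15 in JEKO BR, against 1.42 and 1.77 in JEKO PT, with the PT arrays far apart from each other and a change of 0.56 ± 0.12 (adjusted p = 0.0138). GPI, glucose-6-phosphate isomerase, scored 2.64 and 2.59 in JEKO BR, against 2.30 and 2.33 in JEKO PT, a change of 0.30 ± 0.077 (adjusted p = 0.0405). Leaving out JEKO PT replicate 1 ended the ALDOC call (adjusted p = 0.197), as did leaving out either JEKO BR array (adjusted p = 0.0849 without replicate 1 and 0.117 without replicate 2), and leaving out any 1 of the 4 JEKO arrays ended the GPI call (adjusted p = 0.193 without JEKO BR replicate 2). The other 15 enzymes had changes from -0.18 (PGK1) to 0.24 (PKM). HK1 had a change of 0.19 ± 0.086 (adjusted p = 0.256) and LDHA one of -0.047 ± 0.096 (adjusted p = 0.863). On the probe sets that stood for them, ALDOA, TPI1, GAPDH, PGK1, PGAM1, ENO1, PKM, LDHA and LDHB scored above 2.46 on every array. That is the 98th percentile of the scale.

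SLC2A3 scored 1.22 and 1.48 in JEKO BR, against 0.74 and 0.89 in JEKO PT, a change of 0.53 ± 0.11 (adjusted p = 0.015) in the direction opposite to HBL2. Its other 2 probe sets had changes of -0.039 and 0.062, and the call was lost with the median over probe sets (adjusted p = 0.188), without JEKO BR replicate 2 (adjusted p = 0.243) and without JEKO PT replicate 1 (adjusted p = 0.143). SLC2A1 had a change of 0.024 ± 0.077 (adjusted p = 0.924). PFKFB4 scored 1.61 and 1.79 in JEKO BR, against 1.06 and 1.43 in JEKO PT, a change of 0.46 ± 0.10 (adjusted p = 0.0172). It too was lost without JEKO BR replicate 2 (adjusted p = 0.227) or JEKO PT replicate 1 (adjusted p = 0.227). PDK1, PDK3 and PFKFB3 had changes of 0.19 ± 0.092, 0.15 ± 0.091 and 0.045 ± 0.073 and were not called.

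**Figure D2:**
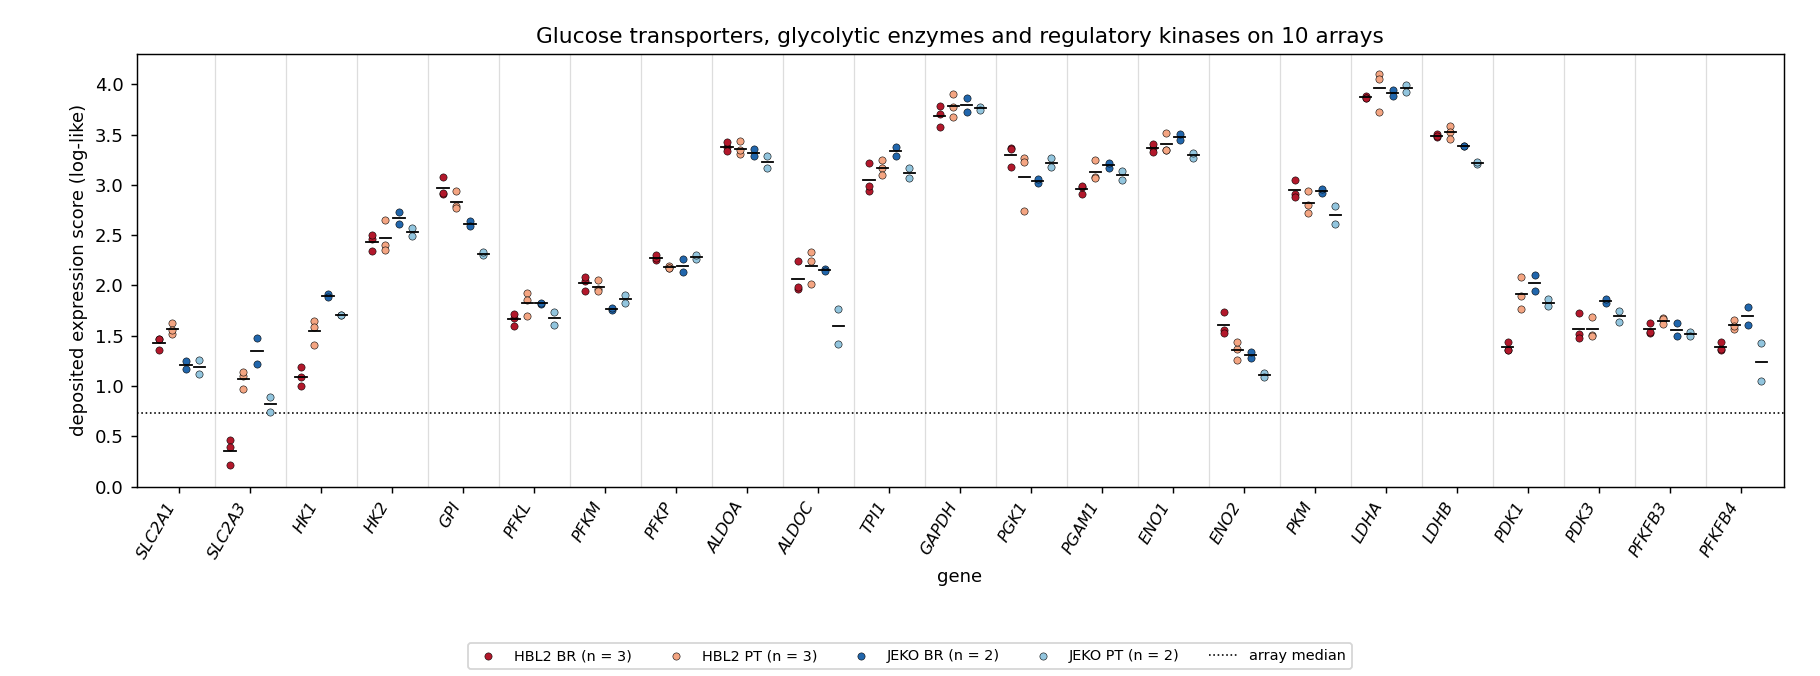
Deposited score (vertical axis, log-like units) of 2 glucose transporters, 17 glycolytic enzymes and 4 regulatory kinases on each array. Points are arrays, short bars are group means and the dotted line is the array median of 0.73. SLC2A3, HK1 and PDK1 show all HBL2 BR points below all HBL2 PT points, as do SLC2A1, PGAM1 and PFKFB4, which were not called in HBL2. ALDOC and PFKFB4 show the JEKO PT points below the JEKO BR points and wide apart from each other.

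The genes of the oxygen-sensing machinery itself were not called in either line: 0 of 6 tested, where the share over all genes (11.8% in HBL2 and 4.28% in JEKO) comes to under 1 gene, or 2 lower in HBL2 and 0 in JEKO at an unadjusted p under 0.05 in limma. HIF1A scored 2.25, 2.35 and 2.32 in HBL2 BR, against 2.24, 2.23 and 2.37 in HBL2 PT, and 2.27 and 2.32 in JEKO BR, against 2.22 and 2.21 in JEKO PT. Its changes were 0.029 ± 0.058 (adjusted p = 0.832) in HBL2 and 0.083 ± 0.071 (adjusted p = 0.611) in JEKO. EPAS1, which encodes HIF-2α, scored 0.56, 0.26 and 0.58 in HBL2 BR, against 0.63, 0.44 and 0.46 in HBL2 PT, and 0.70 and 0.71 in JEKO BR, against 0.74 and 0.57 in JEKO PT. It reached the array median on 1 of 10 arrays and was not tested. The level of the HIF proteins, which oxygen and the proteasome control after translation, is not measured by these arrays.

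EGLN1, the main HIF prolyl hydroxylase, had the largest change of this group in HBL2. It scored 2.32, 2.41 and 2.46 in HBL2 BR, against 2.52, 2.59 and 2.77 in HBL2 PT, without overlap, and the change of -0.23 ± 0.072 (adjusted p = 0.0517) lay just above the threshold. It passed in 5 of the 21 alternatives run, the robust trend among them. VHL had the largest change in JEKO, 0.13 ± 0.095 (adjusted p = 0.53), with 1.48 and 1.20 in JEKO BR, against 1.11 and 1.30 in JEKO PT, and its groups overlapped. EGLN3, a prolyl hydroxylase that HIF itself induces, had changes of -0.20 ± 0.073 in HBL2 and -0.067 ± 0.09 in JEKO. The changes of ARNT in HBL2 and JEKO were -0.079 ± 0.062 and 0.11 ± 0.076, and those of HIF1AN, the asparaginyl hydroxylase that blocks HIF activity, were 0.041 ± 0.07 and -0.016 ± 0.085.

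The 2 lines share no arrays, so the difference of their changes was tested directly. The HBL2 change minus the JEKO change was called in 11 of 42 members, all lower (26.2%, against 5.76% of all genes, and 8.71% in either direction) and 0 higher (2.95% of all genes, and 2 members at an unadjusted p under 0.05 in limma). The 11 were SLC2A3, HK1, ALDOC, PDK1, PFKFB4, KDM4B, VEGFA, ANKRD37, BNIP3, BHLHE40 and ERO1A. BNIP3 passed the filter only through the JEKO arrays, and its difference rests on HBL2 scores not shown to be above background. SLC2A3 was furthest apart at -1.24 ± 0.15 (adjusted p = 6.27e-05), and PDK1 followed at -0.72 ± 0.12 (adjusted p = 0.00118). The difference was below 0 in 36 of 42 members and in 12 of 13 hypoxia targets, where ADM was the exception at 0.35 ± 0.11 (adjusted p = 0.0688). P4HA2 is counted here although, like BNIP3, it passed the filter only through JEKO arrays. Leaving out any 1 array gave 8 to 13 called members, and SLC2A3, HK1, PDK1, PFKFB4, KDM4B, ANKRD37, BNIP3 and BHLHE40 were called whichever of the 4 JEKO arrays was left out.

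The values of the other line place these differences. HK1 scored 1.92 and 1.88 in JEKO BR, against 1.70 and 1.71 in JEKO PT, and PDK1 scored 1.95 and 2.10 in JEKO BR, against 1.79 and 1.87 in JEKO PT, so that in both genes the JEKO BR arrays were above JEKO PT. ANKRD37 scored 1.88 and 2.09 in JEKO BR, against 1.68 and 1.86 in JEKO PT, again without overlap. In HBL2, ALDOC scored 1.96, 1.99 and 2.24 in HBL2 BR, against 2.24, 2.02 and 2.33 in HBL2 PT, with overlapping groups and a change of -0.13 ± 0.097 (adjusted p = 0.455). KDM4B scored 1.99, 2.10 and 2.28 in HBL2 BR, against 2.33, 2.22 and 2.31 in HBL2 PT, also overlapping, a change of -0.16 ± 0.071 (adjusted p = 0.167). BHLHE40 scored 1.88, 1.74 and 1.76 in HBL2 BR, against 1.94, 1.92 and 1.97 in HBL2 PT, and ERO1A scored 1.88, 1.84 and 1.92 in HBL2 BR, against 1.99, 1.94 and 1.94 in HBL2 PT. In these 2 genes every BR array was below every PT array in HBL2 and above in JEKO. VEGFA scored 2.11, 2.22 and 2.16 in HBL2 BR, against 2.27, 2.10 and 2.23 in HBL2 PT, with the groups mixed.

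GPI, KDM3A, NDRG1 and ENO2 were each called in 1 line, and their difference between lines was not. GPI scored 2.91, 2.92 and 3.07 in HBL2 BR, against 2.79, 2.77 and 2.94 in HBL2 PT, and KDM3A scored 2.17, 2.14 and 2.01 in HBL2 BR, against 2.03, 2.06 and 2.05 in HBL2 PT. NDRG1 scored 0.83, 0.98 and 0.97 in HBL2 BR, against 0.99, 0.71 and 0.91 in HBL2 PT. The HBL2 groups overlapped in all 3. ENO2 scored 1.28 and 1.34 in JEKO BR, against 1.13 and 1.09 in JEKO PT, with BR above PT as in HBL2 and a change of 0.20 ± 0.084 (adjusted p = 0.231).

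**Figure D3:**
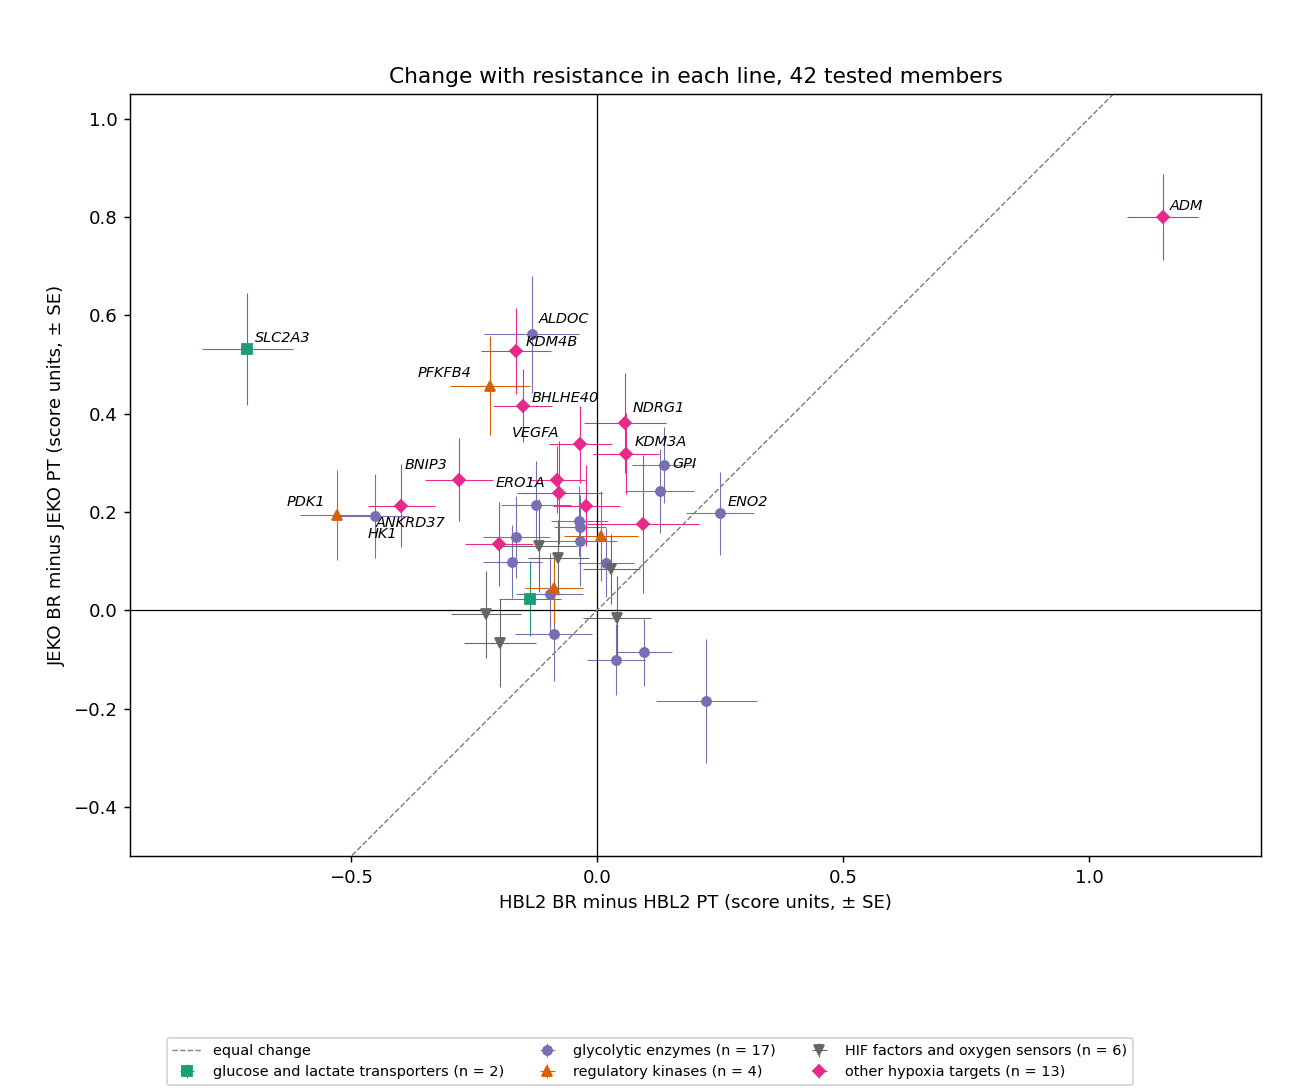
Change with resistance in HBL2 (horizontal axis) against JEKO (vertical axis) in score units, for the 42 tested members by role, with bars for the standard error. Labelled genes were called in a line or in the difference between lines. ADM lies farthest to the upper right, and SLC2A3, PDK1, HK1 and ANKRD37 lie at the upper left, below 0 in HBL2 and above 0 in JEKO.

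**Figure D4:**
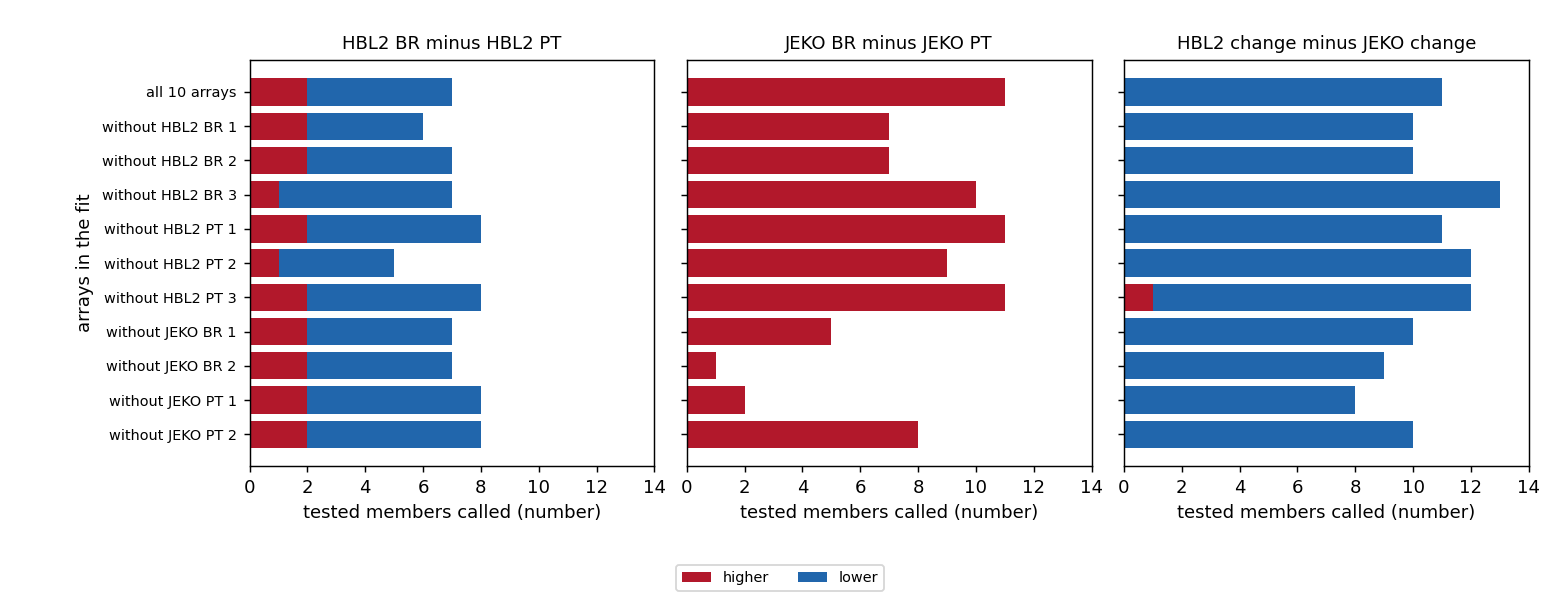
Number of tested members called (horizontal axis) with all 10 arrays and without each array (rows), in red for higher and blue for lower. In HBL2 the number stays between 5 and 8, in JEKO it lies between 1 and 11 and is lowest without JEKO BR replicate 2, and for the difference between lines it stays between 8 and 13.

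The share of members called between the parental lines was close to that of all genes. Of 42 members 10 were called higher in HBL2 PT (23.8%, against 13.9% of all genes) and 1 lower (2.38%, against 9.25%), 11 in all (26.2%, against 23.1%). The member that was lower was BNIP3, with 0.58, 0.68 and 0.63 in HBL2 PT, against 2.37 and 2.60 in JEKO PT. It passed the filter only through the JEKO arrays and so had to differ between the lines, and the HBL2 scores are not shown to be above background, so the difference of -1.85 (-1.12 for the other probe set) is a description. BNIP3 was above the array median on the 4 JEKO arrays and on none of the 6 HBL2 arrays, and the BR arrays kept that order.

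ALDOC scored 2.24, 2.02 and 2.33 in HBL2 PT, against 1.42 and 1.77 in JEKO PT, a difference of 0.60 ± 0.11 (adjusted p = 0.000743). GPI scored 2.79, 2.77 and 2.94 in HBL2 PT, against 2.30 and 2.33 in JEKO PT, a difference of 0.52 ± 0.071 (adjusted p = 6.66e-05). EGLN1 scored 2.52, 2.59 and 2.77 in HBL2 PT, against 2.06 and 2.17 in JEKO PT, a difference of 0.51 ± 0.08 (adjusted p = 0.00022). The groups did not overlap in any of the 3 genes. ERO1A (0.46 ± 0.062) and SLC2A1 (0.38 ± 0.07) followed, although the other probe set of SLC2A1 differed by 0.17 and was not called when it stood for the gene (adjusted p = 0.433). LDHB, PFKFB4, KDM4B, ENO2 and BHLHE40 were the other members higher in HBL2 PT, by 0.31, 0.37, 0.26, 0.24 and 0.22. KDM4B lost this call in 7 of 20 alternatives, ENO2 in 6 of 20, BHLHE40 in 3 of 19, PFKFB4 in 1 of 20 and LDHB in 1 of 19. Other probe sets of KDM4B differed by -0.31 to 0.21. The other probe sets of LDHB, BHLHE40 and PFKFB4 differed by 0.092, 0.037 and 0.28. In ALDOC and PFKFB4, the JEKO BR means (2.15 and 1.70) lay near the HBL2 PT means (2.20 and 1.61). Of the other members called both here and in JEKO, KDM4B (2.56 against 2.29) and BHLHE40 (2.14 against 1.94) had JEKO BR means above the HBL2 PT means. GPI (2.61 against 2.83) and ERO1A (1.77 against 1.96) had them below.

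Other genes of these pathways were read from lists of genes outside the 46, also chosen with earlier results of these data known. Of 34 further hypoxia targets 25 were tested, and in JEKO BR 5 rose (20%, against 2.56% of all genes) and 0 fell (1.72% of all genes), or 12 and 0 at an unadjusted p under 0.05 in limma. They were AK4, a mitochondrial adenylate kinase (0.78 ± 0.12, adjusted p = 0.00118), GBE1, the glycogen branching enzyme (0.64 ± 0.082, adjusted p = 0.000308), DDIT4, an inhibitor of mTORC1 (0.39 ± 0.081, adjusted p = 0.0126), CITED2 (0.32 ± 0.079) and FAM162A (0.30 ± 0.074). GBE1 scored 2.01 and 1.93 in JEKO BR, against 1.40 and 1.25 in JEKO PT, with the groups far apart. The median change over the list was 0.22, against 0.012 over all genes. Without JEKO BR replicate 2, AK4 (0.64, adjusted p = 0.0406) and GBE1 (0.68, adjusted p = 0.00615) were the 2 called, and DDIT4 (0.37, adjusted p = 0.143), CITED2 (0.29, adjusted p = 0.251) and FAM162A (0.28, adjusted p = 0.239) were not. In HBL2 BR 3 rose (12%, against 4.91% of all genes) and 6 fell (24%, against 6.86%): LOXL2, a lysyl oxidase of the matrix, rose by 0.72 and GBE1 by 0.24, while CCNG2, a cyclin of arrested cells, fell by 0.50, ZNF395 by 0.41 and CXCR4, a chemokine receptor, by 0.35. With the median over probe sets CCNG2 (-0.21, adjusted p = 0.183), ZNF395 (-0.14, adjusted p = 0.248) and CXCR4 (-0.11, adjusted p = 0.617) were not called. Without _x_at and _s_at probe sets ZNF395 had a change of -0.029 (adjusted p = 0.933). The third rise in HBL2 BR was RRAGD (0.34, adjusted p = 0.005). GBE1 lost its HBL2 call in 7 of 21 alternatives, LOXL2 in 1 of 20 and RRAGD in 1 of 20. The falls not named lost theirs in 3 to 14 alternatives.

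The lists around glycolysis had 1 of 19, 2 of 28 and 2 of 7 genes called in HBL2 (5.26%, 7.14% and 28.6%, against 11.8% of all genes) and 2, 1 and 0 in JEKO (against 4.28%). Of 19 tested glycolysis relatives, ENO3, the muscle enolase, rose in HBL2 BR (0.35 ± 0.062, adjusted p = 0.00115), and in JEKO BR the transporter gene SLC2A6 (-0.34 ± 0.088) and BSG, the chaperone of lactate transporters (-0.29 ± 0.079, adjusted p = 0.0497), fell. Of 28 genes of pyruvate entry and the TCA cycle, IDH1 (-0.53 ± 0.065, adjusted p = 3.46e-05) and SDHA (-0.28 ± 0.055) fell in HBL2 BR and SDHD (-0.35 ± 0.07) fell in JEKO BR, with 0 rises in either line, or 4 in HBL2 and 1 in JEKO at an unadjusted p under 0.05 in limma. Of 7 pentose phosphate genes, RPE (-0.37 ± 0.063) and PGLS (-0.22 ± 0.065) fell in HBL2 BR, and 0 were called in JEKO, or 1 at an unadjusted p under 0.05. Without JEKO BR replicate 2, SLC2A6 (adjusted p = 0.176), BSG (adjusted p = 0.257) and SDHD (adjusted p = 0.158) were not called, and PGLS lost its HBL2 call in 10 of 21 alternatives. Median changes of these 3 lists were -0.0057, 0.041 and -0.062 in HBL2 and -0.071, -0.029 and -0.016 in JEKO.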

How the data were processed

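Messenger RNA from 10 cell line samples was hybridised to Affymetrix arrays, 1 per sample. The deposited values are scores for 54675 probe sets. Per the submitters' processing notes the authors used MAS5 (no version stated), and how they went from MAS5 signals to scores is not stated in those notes. The largest difference between sorted arrays was 0. Detection calls were not used, and precision is limited by how few arrays each group has.

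Of the probe sets, 41091 had 1 gene symbol in the platform annotation, 1801 several, 11721 none listed and 62 were controls, and only the first were used. Gene numbers of 41037 were found in the RefSeq table (GRCh38.p14). The scores were fitted as deposited, without a further log step, with limma 3.58.1 in R 4.3.3 (4 group means, intensity trend, 6 residual degrees of freedom, two-sided). The code was tested on simulated data. Sample titles gave both the group and the replicate number. 

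Members and lists were chosen with earlier results of these data known. Values per array are given for every member called in a line or in the difference between lines, for HIF1A and EPAS1, and for the largest changes of a role without a call. Between parental lines the 5 largest called differences each way are named, and from other lists up to 4 called genes per line. Beyond these, FAM162A in JEKO, GBE1 and RRAGD in HBL2 and the markers PECAM1, CD79A and CD79B were chosen after their values were seen. The alternatives changed the filter (none, or the 75th percentile), the trend (none, or robust), the probe sets (their median, or only those not named _x_at or _s_at), the scale (percentile ranks) and the model (lines fitted separately, a replicate block, a beta-actin covariate), or left out each array in turn. A GAPDH covariate, and the alternatives for called genes of the other lists, were added after seeing the data.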

Additional observations from a re-analysis of the deposited data

Results flagged for a closer look

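The changes with resistance differed between HBL2 and JEKO in 11 members by the test of the difference itself (limma, adjusted over 14529 genes), the HBL2 change minus the JEKO change being below 0 in each. In 5 of them the gene itself fell in HBL2. SLC2A3 differed by -1.24 ± 0.15 (adjusted p = 6.27e-05), PDK1 by -0.72 ± 0.12 (adjusted p = 0.00118), HK1 by -0.64 ± 0.11 (adjusted p = 0.00169), ANKRD37 by -0.61 ± 0.11 (adjusted p = 0.00205) and BNIP3 by -0.55 ± 0.11 (adjusted p = 0.00472). BNIP3 passed the filter only through the JEKO arrays, and its HBL2 scores all lie below the array median. When a gene was the median of its probe sets, PDK1 (adjusted p = 0.253) and ANKRD37 (adjusted p = 0.137) were no longer called.

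In the other 6 the JEKO rise was called and the HBL2 change was not. ALDOC differed by -0.69 ± 0.15 (adjusted p = 0.00934), KDM4B by -0.69 ± 0.11 (adjusted p = 0.00108) and PFKFB4 by -0.67 ± 0.13 (adjusted p = 0.00374). BHLHE40 differed by -0.57 ± 0.095 (adjusted p = 0.00131), VEGFA by -0.37 ± 0.10 (adjusted p = 0.0295) and ERO1A by -0.35 ± 0.088 (adjusted p = 0.021). Without JEKO BR replicate 2 the calls of VEGFA (adjusted p = 0.146) and ERO1A (adjusted p = 0.118) were lost, and without JEKO PT replicate 1 those of VEGFA (adjusted p = 0.178), ERO1A (adjusted p = 0.0574) and ALDOC (adjusted p = 0.0753). VEGFA was also lost without HBL2 BR replicate 1 or JEKO BR replicate 1, and ERO1A without HBL2 BR replicate 2 or JEKO PT replicate 2. With the GAPDH 5' minus 3' covariate ALDOC (adjusted p = 0.0844), VEGFA (adjusted p = 0.146) and ERO1A (adjusted p = 0.13) were not called either, which left 8 of the 11. Taking the median of each gene's probe sets ended the calls of KDM4B (adjusted p = 0.0644), BHLHE40 (adjusted p = 0.102), VEGFA (adjusted p = 0.425) and ERO1A (adjusted p = 0.178).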

How the results depend on the processing

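The direction of every called member held in all alternatives run, and none reversed. The filter, the trend, separate fits of the lines and the replicate block do not alter a change within a line. Nor does leaving out an array of the other line. The kept direction under these settings adds no support. Where the BR and PT arrays of a line did not overlap, leaving out 1 array could not turn it. The number of called members in HBL2 (7) stayed at 5 to 10. In JEKO (11) it was 4 with no intensity trend, 6 with the median over probe sets, 5 without _x_at and _s_at probe sets, 5 with percentile ranks and 3 with the GAPDH 5' minus 3' covariate. The difference between lines (11) had 6 with the median over probe sets, and the parental comparison (11) had 6 without _x_at and _s_at probe sets. The cause was not tested, except that fewer members (25) could be tested without _x_at and _s_at probe sets. Leaving out 1 array gave 5 to 8 members in HBL2, 1 to 11 in JEKO, 8 to 13 for the difference and 8 to 11 between parental lines. Over all genes, 1711 were called in HBL2, 622 in JEKO, 1266 for the difference and 3361 between parental lines. Leaving out 1 array gave 1118 to 1647 in HBL2 (fewest without HBL2 BR replicate 2), 120 to 942 in JEKO (fewest without JEKO BR replicate 2, most without HBL2 PT replicate 3), 658 to 1473 for the difference and 1974 to 3610 between parental lines. Each of the 4 JEKO arrays moved the JEKO count by over 1.5 times (281 without BR replicate 1, 208 without PT replicate 1, 246 without PT replicate 2). The difference had 696 without JEKO PT replicate 1 and 832 without JEKO PT replicate 2, its lowest being without JEKO BR replicate 2, and the parental comparison had 2015 without JEKO PT replicate 1, its lowest being without JEKO PT replicate 2. JEKO had 389 genes with no trend and 335 with the GAPDH covariate, and the difference had 600 with it. With the replicate block, 10 members were called in HBL2, 9 in JEKO, 13 for the difference and 10 between parental lines, where the genes called were 2173. BR and PT arrays of the same number had deviations correlated at 0.0075 to 0.14 in HBL2 and 0.078 in JEKO, and not every HBL2 array correlated best with its own number, so the numbers were not taken as pairs. A JEKO group reduced to 1 array was assumed to vary like the other groups.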

Other observations

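PGK1, the phosphoglycerate kinase gene and a textbook HIF-1 target, had changes of opposite sign in the 2 lines. It scored 3.18, 3.36 and 3.36 in HBL2 BR, against 3.26, 3.22 and 2.74 in HBL2 PT, and 3.01 and 3.06 in JEKO BR, against 3.18 and 3.27 in JEKO PT. Its changes, 0.22 ± 0.10 (adjusted p = 0.202) in HBL2 and -0.18 ± 0.13 (adjusted p = 0.5) in JEKO, were not called, and the 2 JEKO BR arrays lay below both PT arrays. The HBL2 change minus the JEKO change, 0.41 ± 0.16 (adjusted p = 0.143), was not called either. All 6 of its probe sets had changes above 0 in HBL2, from 0.011 to 0.22. Without HBL2 PT replicate 3, the array at 2.74, the HBL2 change of PGK1 was 0.056 (adjusted p = 0.664). In JEKO 5 of the 6 had changes below 0, from -0.28 to -0.18, and the other had one of 0.046. In HBL2 the change became called with the beta-actin covariate (adjusted p = 0.025), among 21 alternatives with adjusted p between 0.025 and 0.684.

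GAPDH, often used as a loading control, had 3 probe sets and 3 control probe sets along its transcript. The brightest of the 3 had a change of -0.097 ± 0.068 (adjusted p = 0.434) in HBL2 and 0.032 ± 0.083 (adjusted p = 0.896) in JEKO. The 3' control averaged 4.001 ± 0.019 in HBL2 BR, 4.06 ± 0.10 in HBL2 PT, 4.09 ± 0.037 in JEKO BR and 3.998 ± 0.016 in JEKO PT (SD, n = 3, 3, 2 and 2). The 5' control averaged 3.74 ± 0.11 in HBL2 BR, 3.68 ± 0.099 in HBL2 PT, 3.62 ± 0.20 in JEKO BR and 3.65 ± 0.042 in JEKO PT.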
